A study of Rattus norvegicus with 6 samples.

Results

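The genes described here encode the proteins of the mitochondrial respiratory chain and the ATP synthase. They were chosen by symbol, from probe sets that the platform annotation gave 1 symbol beginning with Nduf, Uqcr, Cox4 to Cox8 or Atp5, or equal to Sdha, Sdhb, Sdhc or Sdhd. This gave 80 genes with 91 probe sets, of 14324 genes and 27342 probe sets in all, and a gene with several probe sets was read from the one whose mean over the 6 arrays was highest. There were 34 genes of complex I, 3 complex I assembly factors, 4 genes of complex II, 7 of complex III, 16 of complex IV and 16 of complex V. Of the 80, 78 are protein-coding genes and 2 are pseudogenes, Ndufs6-ps1 and Cox6c-ps1. RefSeq holds 118 protein-coding rat genes with such symbols, and 40 of them, among them Ndufa13, Uqcr10, Cox6b1 and Cox7a1, had no probe set under a single symbol and were not analysed here.

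Complexes I and II take electrons from NADH and succinate and hand them to ubiquinone, complex III passes them on to cytochrome c, and complex IV gives them to oxygen. Complexes I, III and IV pump protons across the inner membrane as they do so, and complex V, the ATP synthase, uses the returning protons to make ATP. Most subunits are encoded in the nucleus and a minority in mitochondrial DNA, so the genes of both genomes must be expressed together. Oocytes hold a large store of mitochondria, which the embryo inherits.

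The ovaries came from female Sprague-Dawley rat pups on the day of birth and were cultured whole on floating filters for 24 h. The CTGF group (3 samples) received human connective tissue growth factor, a secreted protein of the extracellular matrix, at 500 ng/ml, and the control group (3 samples) received no treatment. Between 2 and 3 ovaries, from different pups of 1 litter and from 1 culture well, made up a sample, and each of the 3 organ culture date batches held 1 CTGF pool and 1 control pool. The comparison asks which transcripts CTGF changed while oocyte nests assemble into primordial follicles.

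Transcripts were measured on Rat Gene 1.0 ST arrays, and all values are log2 signals of probe sets as deposited. Array medians lay between 5.82 and 5.84. A p-value here rests on the scatter of the CTGF minus control difference over the 3 batches. It does not measure the spread between pools of 1 group. The number of arrays limits the precision of every value. Differences between batches had been removed before deposit, so that the mean of the CTGF and control arrays was the same in each batch to within 0.005. For this reason the CTGF and control signals of a gene are apart without overlap exactly when the difference has 1 sign in all 3 batches. To set a level for background, 43 genes of other organs, such as lens, pancreas and kidney, were read in the same way, and the 95th percentile of their signals was 5.44. Of the 80 genes, 75 had a mean signal above that level, as did 55.2% of all probe sets. The remaining 5 were Cox4i2, Cox6a2, Cox8b and Cox8c, isoforms of complex IV known from lung, muscle or testis, and the pseudogene Cox6c-ps1. In whole ovaries, fewer cells of a type and less RNA per cell cannot be told apart.

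The respiratory chain genes differed little between CTGF and control ovaries. Their mean differences, CTGF minus control, ran between -0.21 and 0.15, with 30 genes above control, 48 below and 2 at the same mean. The median was -0.02, against -0.0033 over all probe sets. No gene passed an adjusted p under 0.05 in limma (smallest adjusted p = 0.994), and over all probe sets 0% did. At an unadjusted p under 0.05, 0 of the 80 were higher, where 1.45% of all probe sets were, and 1 was lower, Ndufa2, where 1.89% were. Both directions together gave 1 of 80 genes, against 3.35% of all probe sets. The study's criteria, which join a ratio and a minimum difference of un-logged signals to an unadjusted p, were met by 0 of the 80 genes and by 0.435% of all probe sets. The CTGF and control signals did not overlap in 17 genes, 5 higher and 12 lower with CTGF (background 9.41% higher and 10.9% lower). The 5 were Ndufa6, Uqcrfs1, Cox7c, Cox6a1 and Atp5pf. The 12 were Ndufa2, Ndufa4, Ndufb7, Ndufs3, Ndufs4, Cox6a2, Cox6c, Atp5mc1, Atp5mc3, Atp5f1a, Atp5if1 and Atp5me.

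The arrays were precise enough to bound most of these differences. The 95% interval from limma lay wholly within a 1.2-fold change either way, or ±0.263 on the log2 scale, for 58 of the 80 genes (72.5%), and for 61.7% of all probe sets. A mean difference of more than 0.1 in size was seen in 14 genes, or 17.5%, against 20.9% of all probe sets. For the other genes these 6 arrays did not bound a change of 1.2-fold.

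**Figure D1:**
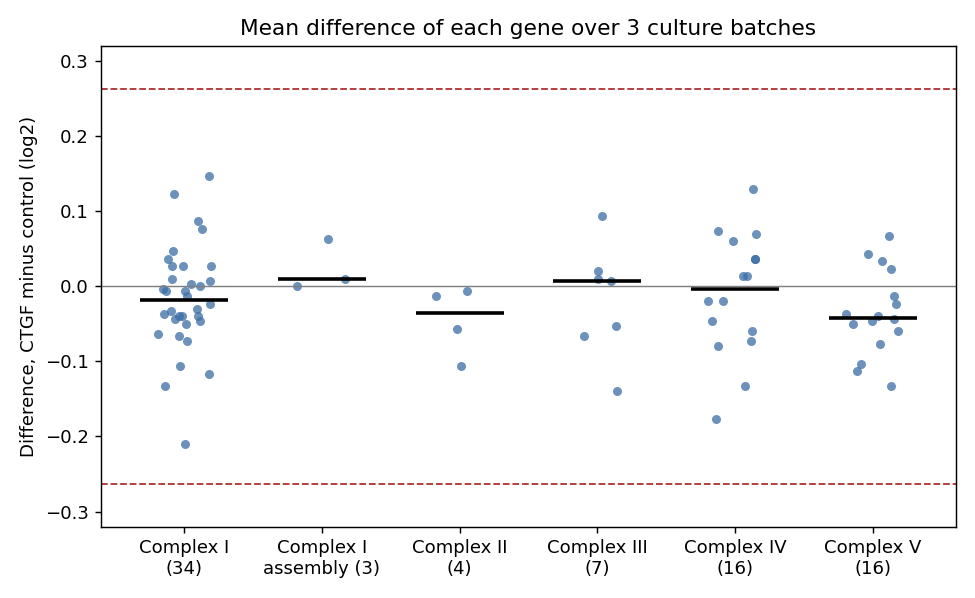
Mean difference of each of the 80 genes, CTGF minus control (log2, vertical axis), by complex with the number of genes in parentheses. Points are genes, black lines are medians and dashed lines mark a 1.2-fold change (±0.263). All points lie between -0.21 and 0.15, inside the dashed lines.

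In complex I, which oxidizes NADH, 12 genes were above control, 21 below and 1 at control, with a median difference of -0.018. The catalytic core, which carries the flavin and the iron-sulfur clusters, was represented by Ndufs1, Ndufs3, Ndufs7, Ndufs8, Ndufv1 and Ndufv2, and their differences ran between -0.05 and 0.04. The other 28 genes, which held supernumerary subunits, Ndufa4 and the pseudogene Ndufs6-ps1, included both ends of the range over all 80 genes. Ndufa2, a small subunit of the matrix arm, had 5.68, 5.59 and 5.61 in CTGF ovaries of batches 1, 2 and 3, against 5.79, 5.87 and 5.85 in control ovaries. The CTGF values were all below the control values, and the difference was -0.21 ± 0.07 (SE; 95% interval -0.38 to -0.04). Its unadjusted limma p was 0.0213 and its adjusted p 0.994, and its signal stood only a little above the background level of 5.44. Ndufa6, a subunit of the same arm, was on the other side, with 8.02, 8.07 and 8.03 in CTGF ovaries and 7.92, 7.86 and 7.90 in control ovaries. Its difference was 0.15 ± 0.06 (SE; interval -0.01 to 0.30), without overlap between the groups.

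Ndufb7, a subunit of the membrane arm, had 7.92, 7.94 and 7.86 in CTGF ovaries and 8.01, 7.99 and 8.07 in control ovaries, a difference of -0.12 ± 0.07 (interval -0.28 to 0.05). Ndufa4, first named as part of complex I and since placed with complex IV, had 11.15, 11.11 and 11.07 in CTGF ovaries and 11.20, 11.25 and 11.28 in control ovaries. Its difference was -0.13 ± 0.07 (interval -0.30 to 0.03). In both genes every CTGF value lay below every control value, yet the intervals include 0. Ndufv3, a small subunit near the NADH site, had 2 probe sets that pointed in opposite directions, with 0.0067 in the one read here and -0.10 in the other. The complex I assembly factors Ndufaf3 and Ndufaf4 had differences of 0.06 ± 0.09 and 0.01 ± 0.10, with overlapping groups, and Ndufaf1 was at control on average.

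Complex II, succinate dehydrogenase, also belongs to the tricarboxylic acid (TCA) cycle and has all its subunits encoded in the nucleus. All 4 genes averaged below control, with a median of -0.035, but none did so in every batch. Sdhc, a membrane anchor that helps to hold the heme, had 9.40, 9.43 and 9.28 in CTGF ovaries and 9.44, 9.42 and 9.57 in control ovaries (difference -0.11 ± 0.08, interval -0.30 to 0.09). Sdhb, the iron-sulfur subunit, had 9.62, 9.62 and 9.50 in CTGF ovaries and 9.59, 9.60 and 9.72 in control ovaries (-0.06 ± 0.08, interval -0.24 to 0.13). In both genes batches 1 and 2 were near 0 and batch 3 gave the difference, -0.29 for Sdhc and -0.22 for Sdhb. Sdhd, the second anchor, was -0.14 in batch 3 and above control in the others, with a mean of -0.0067 ± 0.07. Sdha, the flavoprotein with the catalytic site, had 10.39, 10.33 and 10.39 in CTGF ovaries and 10.37, 10.42 and 10.36 in control ovaries. Its difference was -0.01 ± 0.07, with overlapping groups and an interval of -0.17 to 0.15. Without batch 3 the mean of Sdhb was 0.025 and that of Sdhd 0.06, both above control.

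Complex III had 4 genes above control and 3 below, with a median of 0.0067. Uqcrfs1, the Rieske iron-sulfur protein, had 8.53, 8.42 and 8.44 in CTGF ovaries and 8.31, 8.41 and 8.39 in control ovaries. The groups did not overlap, with a gap of 0.01 at the closest, and the difference was 0.09 ± 0.07 (interval -0.08 to 0.27). Uqcrq, a small subunit that holds the ubiquinone-binding part, had 8.16, 8.08 and 8.04 in CTGF ovaries and 8.16, 8.25 and 8.29 in control ovaries. It was equal in batch 1 and lower with CTGF in the others, for a mean of -0.14 ± 0.07 (interval -0.32 to 0.04). Uqcrh, the hinge protein that docks cytochrome c, and Uqcrc2, a core protein, averaged -0.07 ± 0.07 and -0.05 ± 0.07. Uqcrb, which binds ubiquinone, was within 0.05 of control in each batch, and its 3 probe sets had differences of -0.02, 0.01 and 0.0067.

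**Figure D2:**
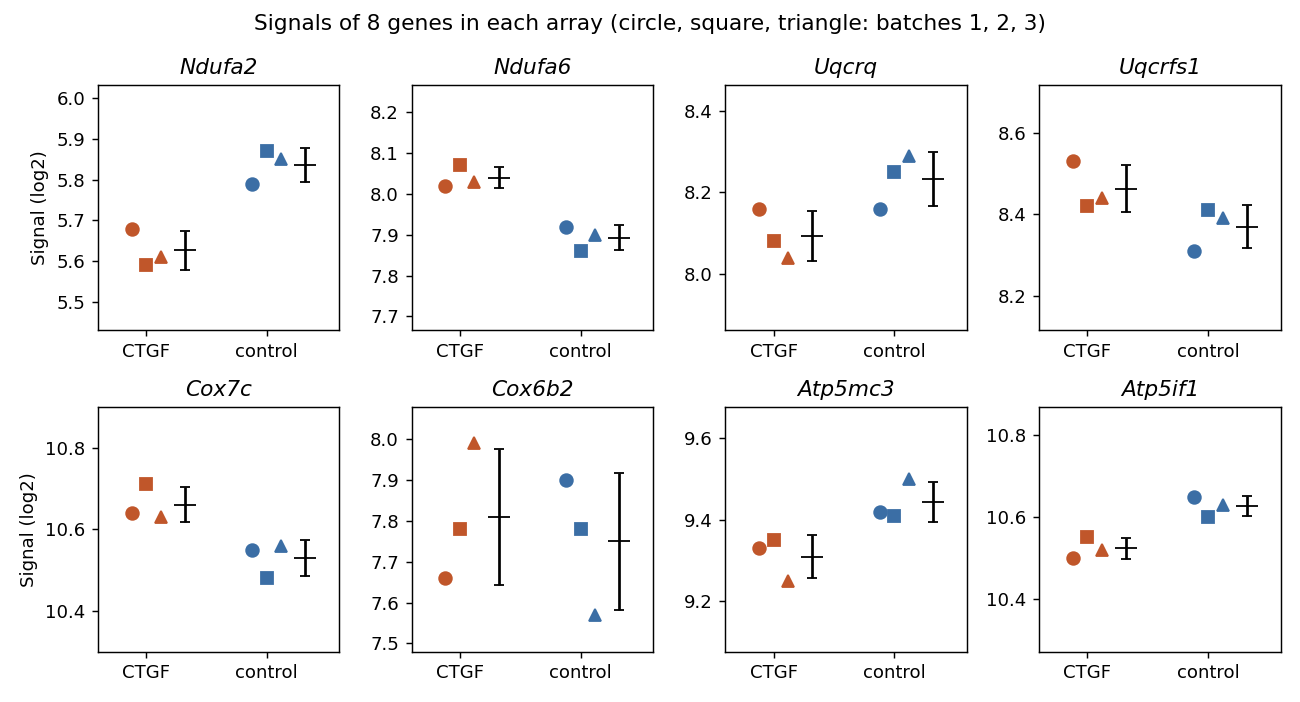
Log2 signals of 8 genes in every array, with CTGF at the left and control at the right of each panel. Circles, squares and triangles are batches 1, 2 and 3, and black bars are the mean ± SD of the 3 arrays. Groups are apart in Ndufa2, Ndufa6, Uqcrfs1, Cox7c, Atp5mc3 and Atp5if1, meet in Uqcrq and overlap in Cox6b2.

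Complex IV, cytochrome c oxidase, had 8 genes above and 8 below control, with a median of -0.0033. This median was 0.01 with each array centred on its median and -0.02 with Ndufa4 counted in complex IV. Cox7c, a small subunit found in all tissues, had 10.64, 10.71 and 10.63 in CTGF ovaries and 10.55, 10.48 and 10.56 in control ovaries. The difference was 0.13 ± 0.07 (interval -0.04 to 0.30), without overlap. Cox6c, another subunit present in all tissues, had 11.60, 11.58 and 11.59 in CTGF ovaries against 11.66, 11.67 and 11.66 in control ovaries. The difference of -0.07 ± 0.06 (interval -0.22 to 0.08) was of much the same size in each batch. The pools of a group were within 0.02 of each other, which is the same observation once batch differences are removed.

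Several complex IV subunits have isoforms for different tissues. Of Cox4i1, Cox6a1, Cox7a2 and Cox8a, the forms of most tissues, the differences were -0.02 ± 0.09, 0.04 ± 0.06, -0.06 ± 0.07 and 0.01 ± 0.07. Cox6a1 lay above control in all 3 batches, by 0.01, 0.09 and 0.01. Cox6a2, the heart and muscle form, was at background, with 4.80, 4.77 and 4.90 in CTGF ovaries and 5.02, 5.06 and 4.92 in control ovaries. Cox8b, also a muscle form, had 3.94, 3.83 and 3.80 in CTGF ovaries and 3.91, 4.01 and 4.05 in control ovaries. Cox4i2 and Cox8c ranged over 4.10 to 4.18 and 4.09 to 4.15 in CTGF ovaries, and over 4.06 to 4.14 and 4.04 to 4.10 in control ovaries. Signals at background do not measure a change in level. These 4 genes remain in the counts and the median of complex IV, and of the 11 genes above background the median was 0.013.

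Cox6b2, known in mammals as the testis form of a subunit at the interface of the enzyme dimer, was the 1 of 5 tissue isoforms with a signal above background. It had 7.66, 7.78 and 7.99 in CTGF ovaries and 7.90, 7.78 and 7.57 in control ovaries. The batches pointed in opposite directions, by -0.24, 0.00 and 0.42, and the mean of 0.06 ± 0.13 had an interval of -0.25 to 0.37. Cox7b, a subunit of the enzyme of all tissues, also ran both ways, by 0.17, 0.37 and -0.33.

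Complex V, the ATP synthase, had 4 genes above control and 12 below. Its median of -0.042 was the lowest of the complexes in the values as deposited but not in each alternative. Without batch 1, complex III was at -0.07, complex II at -0.065 and complex V at -0.0625. Without batch 2, complex II was at -0.0775 and complex V at -0.0425. Complexes II and V were level at -0.046 after quantile normalization. In the catalytic F1 head, Atp5f1a had 11.35, 11.34 and 11.34 in CTGF ovaries and 11.40, 11.41 and 11.40 in control ovaries. The groups were apart and the 3 batch differences were -0.05, -0.07 and -0.06, while Atp5f1b, the other main subunit of the head, averaged 0.04 ± 0.07 with overlapping groups. Atp5f1e, the small epsilon subunit, averaged -0.08 ± 0.07, above control by 0.01 in batch 3.

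The 3 genes of the c ring, the proton-driven rotor, encode the same mature protein from different precursors, and all 3 averaged below control. Atp5mc3 had 9.33, 9.35 and 9.25 in CTGF ovaries and 9.42, 9.41 and 9.50 in control ovaries (-0.13 ± 0.07, interval -0.30 to 0.04). Atp5mc1 had 7.98, 7.98 and 7.99 in CTGF ovaries and 8.04, 8.03 and 8.03 in control ovaries (-0.05 ± 0.06, interval -0.20 to 0.10). Both were without overlap between the groups, and Atp5mc2 was -0.10, -0.04 and 0.01 in the 3 batches.

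Atp5if1, the inhibitor that stops the enzyme from running backwards, had 10.50, 10.55 and 10.52 in CTGF ovaries and 10.65, 10.60 and 10.63 in control ovaries. Atp5me, the small e subunit, which takes part in the pairing of ATP synthases, had 7.40, 7.31 and 7.43 in CTGF ovaries and 7.47, 7.57 and 7.44 in control ovaries. Both were below control in every batch, with means of -0.10 ± 0.06 and -0.11 ± 0.08 and intervals of -0.26 to 0.05 and -0.30 to 0.07. The peripheral stalk, which holds the head still, had 3 of 4 genes below control on average, but all 4 were above it in batch 1, with batch medians of 0.11, -0.01 and -0.155. Atp5pf was above control in each batch, by 0.12, 0.01 and 0.07.

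The complexes differed in how evenly the 3 batches took part. Over the 80 genes the median difference was 0.01 in batch 1, -0.01 in batch 2 and -0.065 in batch 3, with 34, 41 and 56 genes below control (42.5%, 51.2% and 70%). Over all probe sets 49%, 51.2% and 47.4% were below control in those batches. Of the probe sets above background, as most of the 80 genes are, 45.8%, 47.3% and 51% were. In batch 3 the medians were -0.07 for complex I, -0.18 for complex II, -0.08 for complex III and -0.045 for complex IV. The same complexes had 0.01, 0.02, 0.05 and -0.015 in batch 1. Complex V was low in each, with -0.055, -0.045 and -0.05. With batch 3 left out, 39 of the 80 genes were below control, and the medians of complexes I and II were above it, at 0.015 and 0.005.

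Markers of some cell types had their largest median difference in batch 3, and those of others did not. The 6 stroma markers (Pdgfra, Col1a1, Col1a2, Col3a1, Dcn and Nr2f2) had median differences of 0.115, 0.06 and -0.465 in batches 1, 2 and 3, and in batch 3 all 6 were below control. All 6 had signals above background. Their summed un-logged signal ranged over 4489 to 5584 in CTGF ovaries and 5083 to 6321 in control ovaries, with 4489 in the CTGF pool and 6321 in the control pool of batch 3. Of the oocyte markers 10 of 12 were measured, all but Nanos3 with a mean signal above background, and 9 averaged above control, with medians of 0.08, 0.045 and 0.21. Their sum ranged over 5563 to 6095 in CTGF ovaries and 5270 to 5788 in control ovaries, with 6095 and 5270 in batch 3. As batch differences had been removed, a low CTGF pool comes with a high control pool of its batch, and the reverse. Opposite extremes of the sums in 1 batch, as in batch 3 here, follow from that step. Of the 10 oocyte markers, 3 were above control in each batch (9.41% of all probe sets were) and 7 were mixed. The 3 were Kit (0.12, 0.15 and 0.31), Lhx8 (0.04, 0.08 and 0.34) and Nanos3 (0.22, 0.20 and 0.14). Kit and Nanos3 had an unadjusted limma p of 0.0326 and 0.0252, with an adjusted p of 0.994. The defining oocyte genes Ddx4 and Dazl were among the mixed ones. Ddx4 differed by 0.04, -0.26 and 0.23 and Dazl by 0.12, -0.23 and 0.19 in batches 1, 2 and 3, with means of 0.0033 and 0.027. Of the macrophage markers 4 of 6 averaged below control, with medians of -0.095, -0.035 and -0.245. Their sum ranged over 651.1 to 707.7 in CTGF ovaries and 692.6 to 754.8 in control ovaries. The pregranulosa cell markers, 6 of 8 measured, had medians of -0.14, 0.065 and 0.03. They summed to 4391 to 4760 in CTGF ovaries and 4362 to 4729 in control ovaries. Surface epithelium markers, 5 of 6 measured, had medians of 0.07, 0.03 and 0.07. Endothelium markers, 2 of 4 measured, had -0.11, -0.08 and -0.14, but neither was below control in every batch. Tek differed by -0.12, -0.24 and 0.08, and Cdh5, at background, by -0.10, 0.08 and -0.36. Red blood cell markers (3 of 5 measured, 2 at background) had 0.16, -0.24 and 0.07. Muscle markers, 7 of 8 measured, had 0.11, 0.02 and -0.01. Some markers of these last 4 lists were at background. The part of the cell types in the respiratory chain differences was not tested.

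**Figure D3:**
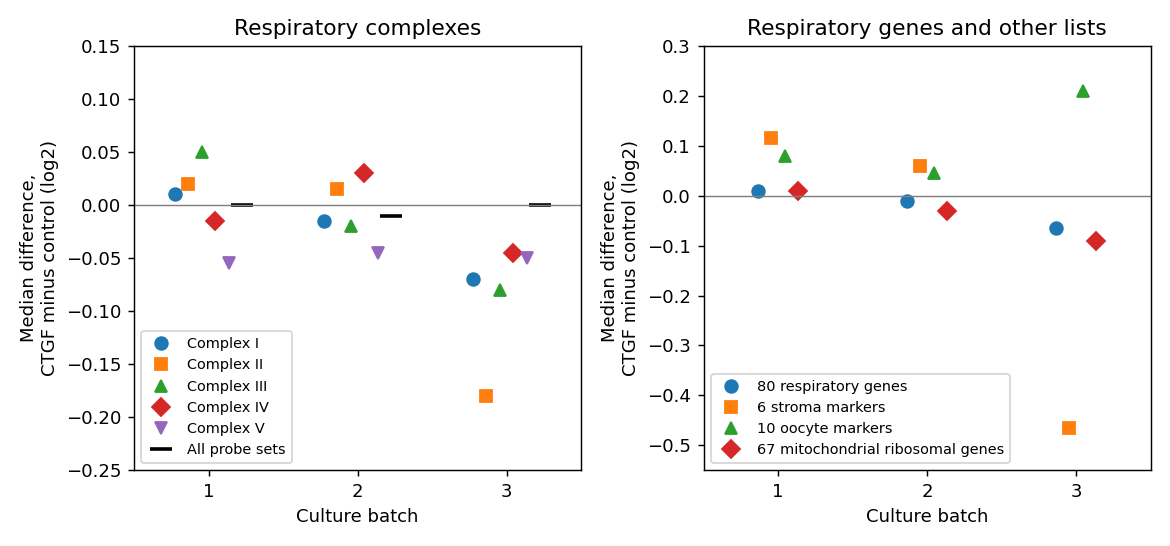
Median difference, CTGF minus control (log2, vertical axis), in each of the 3 culture batches (horizontal axis), for the 5 complexes and all probe sets at the left, and for all 80 respiratory genes beside 3 other lists at the right. Complex V lies between -0.055 and -0.045 in every batch, and in batch 3 the stroma markers lie at -0.465 and the oocyte markers at 0.21.

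The promoters of these genes were searched for a pair of known motifs. In mammals the transcription factors NRF-1, which binds GC-rich palindromes, and NRF-2 (GABP), which binds the ETS motif, are known to act on many respiratory chain genes. The letters GCGCANGCG (NRF-1 type) and CCGGAAG (ETS type) were looked for on both strands, from 250 bases before to 50 bases after the start of transcription, in RefSeq promoters of the GRCr8 assembly. A window was found for 70 of the 80 genes, and the first listed was used where a gene had several. The NRF-1 type letters were in 18 of the 70 (25.7%), against 6.26% of 27457 promoters and 9.81% of 11787 promoters of protein-coding genes with a probe set here. The ETS type letters were in 21 (30%), against 9.22% and 13%. At least 1 of them was in 36 (51.4%), against 14.2% of all promoters and 20.6% of those of protein-coding genes with a probe set. The NRF-1 type was in 6 of 15 promoters of complex V and 1 of 12 of complex IV, and the ETS type in 3 of 5 of complex III. These are matches of letters and not sites of binding.

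The 6 genes shown next have a match in the 100 bases before the start, with at least 1 of each complex. On average Ndufa6 was above control, and Ndufb7, Uqcrq and Atp5me were below it. Cox8a (0.01 ± 0.07) and Sdha (-0.01 ± 0.07) were near control and turned in sign under some alternatives. The 100 bases of each gene are given to show what the letters look like. Each is read 5′ to 3′ along the gene, and capitals mark the matched letters on either strand, where CTTCCGG is CCGGAAG on the other strand. In Atp5me the capital stretch near the left is a palindrome and matches on both strands in overlapping positions.
Ndufa6 (chr7:115750318-115750417, minus strand): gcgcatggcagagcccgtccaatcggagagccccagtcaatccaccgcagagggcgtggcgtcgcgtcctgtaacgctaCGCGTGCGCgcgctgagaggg
Ndufb7 (chr19:41477292-41477391, minus strand): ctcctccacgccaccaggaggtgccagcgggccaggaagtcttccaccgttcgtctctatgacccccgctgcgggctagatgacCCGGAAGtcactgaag
Sdha (chr1:30764453-30764552, plus strand): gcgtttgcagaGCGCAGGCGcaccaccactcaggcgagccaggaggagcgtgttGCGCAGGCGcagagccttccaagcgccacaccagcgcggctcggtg
Uqcrq (chr10:38089979-38090078, minus strand): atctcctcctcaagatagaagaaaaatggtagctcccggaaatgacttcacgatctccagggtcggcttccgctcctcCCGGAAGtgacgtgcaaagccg
Cox8a (chr1:213833624-213833723, minus strand): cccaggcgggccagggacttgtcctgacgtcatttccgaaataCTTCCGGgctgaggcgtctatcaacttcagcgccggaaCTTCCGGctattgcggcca
Atp5me (chr14:1464760-1464859, plus strand): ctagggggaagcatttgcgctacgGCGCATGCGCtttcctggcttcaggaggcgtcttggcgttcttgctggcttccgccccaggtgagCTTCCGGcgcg

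The differences between CTGF and control ovaries were much alike with and without these letters. The 36 genes with either motif had a median of -0.022, with 24 below control, and the 34 with neither had -0.013, with 19 below control. Ndufa6 and Atp5me, which both held letters of both types, differed in opposite directions.

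Genes that build or supply the chain differed on the same small scale as its subunits. Of 67 mitochondrial ribosomal protein genes, which translate the subunits encoded in mitochondria, 16 were above control and 51 below, with a median of -0.047. Their batch medians of 0.01, -0.03 and -0.09 were lowest in batch 3, where 77.6% were below control. Of them 1 passed an unadjusted p under 0.05, Mrps21, with 7.98, 7.82 and 7.85 in CTGF ovaries and 8.02, 8.17 and 8.14 in control ovaries (-0.23 ± 0.08, unadjusted p = 0.0319). Mrpl46, with the next smallest p, had a difference of -0.16 ± 0.07. Of 18 measured genes of the TCA cycle and pyruvate dehydrogenase, 6 were above control, 12 below and 0 past an unadjusted p under 0.05. Idh3g, a subunit of the NAD-dependent isocitrate dehydrogenase, averaged -0.11 ± 0.07, and Idh2, the NADP-dependent enzyme, -0.18 ± 0.14, with -0.60 in batch 3. Of 25 assembly factors of complexes II to V, 9 were above and 16 below control with 0 called, and Cox19 and Coa7 averaged -0.16 ± 0.08 and -0.14 ± 0.07. Of 6 complex I assembly factors outside the Nduf symbols, 2 were above and 4 below with 0 called, among them Dmac2 (-0.14 ± 0.09) and Timmdc1 (-0.10 ± 0.07).

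Of 10 measured genes for cytochrome c and the carriers and channels of the mitochondrial membranes, 3 were above control and 5 below with 0 called. Genes at background, Ucp1 and Ucp3 here and Pdk4, Fmc1, Ppargc1b and Esrra among others in the other lists, remain in the counts. Cycs, cytochrome c itself, had 10.38, 10.43 and 10.29 in CTGF ovaries and 10.47, 10.43 and 10.57 in control ovaries (-0.12 ± 0.08), and the adenine nucleotide carrier Slc25a5 averaged -0.07 ± 0.10. The import machinery had 7 genes above and 11 below control, and 1 of 19 passed an unadjusted p under 0.05, Chchd4 (0.20 ± 0.07, unadjusted p = 0.0289), which folds imported proteins by forming disulfide bonds. Import genes too were mostly below control in batch 3, 16 of 19. Of 19 regulators of mitochondrial gene expression, 9 were above and 10 below control, and 1 passed an unadjusted p under 0.05, against 3.35% of all probe sets. Nrf1 and Gabpa averaged 0.03 ± 0.07 and 0.03 ± 0.07, Tfam, which packs mitochondrial DNA, -0.0067 ± 0.07, and Ppargc1a, the coactivator of mitochondrial biogenesis, -0.01 ± 0.08. Mterf1, which binds mitochondrial DNA downstream of the ribosomal RNA genes, was below control by 0.20, 0.23 and 0.22 in the 3 batches (-0.22 ± 0.06, unadjusted p = 0.0125, adjusted p = 0.994), and Pprc1 averaged -0.11 ± 0.06. Of the 13 subunits encoded in mitochondrial DNA, 0 had a named probe set, and probe sets without a symbol were not searched for them. The study lists a probe set of the mitochondrial genome sequence, without a symbol, as higher with CTGF. The balance between both genomes was not analysed here.

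**Figure D4:**
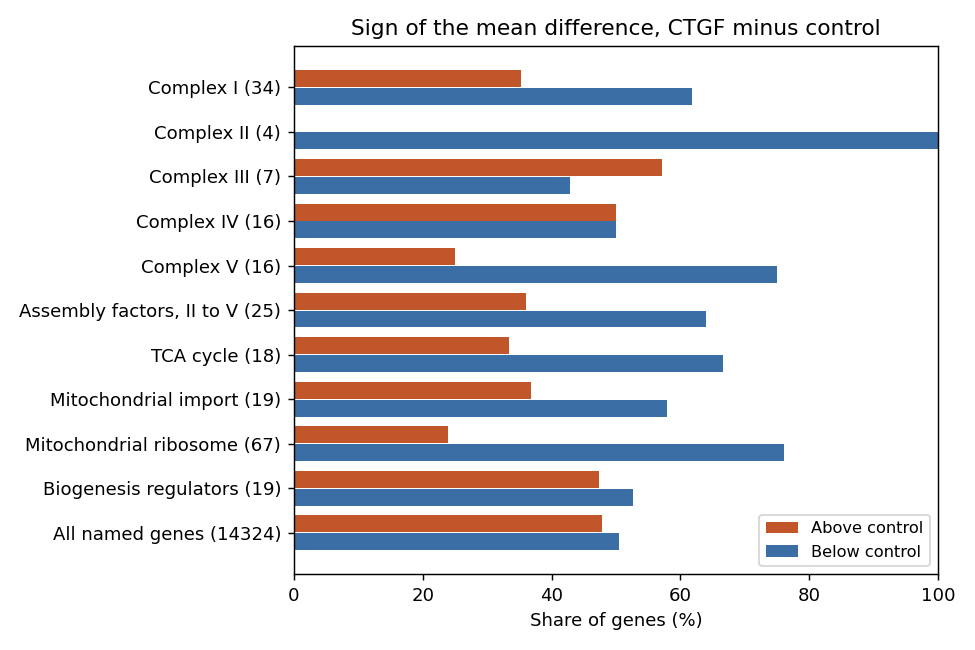
Share of genes (%, horizontal axis) whose mean difference was above control (orange, upper bar) or below control (blue, lower bar), for each complex, 5 related gene lists and all 14324 named genes, with the number of genes in parentheses. Shares below control ran from 42.9% in complex III to 100% in complex II (4 genes), with 50.5% over all named genes. They were 61.8% in complex I, 50% in complex IV and 75% in complex V. In the lists they were 76.1% (mitochondrial ribosome), 66.7% (TCA cycle), 64% (assembly factors), 57.9% (import) and 52.6% (regulators).

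In 10 of the 80 genes more than 1 probe set was named, and in 8 of these the probe sets had no opposite signs. Ndufb4, with 0.12 and 0.09, and Cox7a2, with -0.06 and -0.08, are examples, and Ndufv3 and Uqcrb were the exceptions. Among the 40 genes without a probe set here, 22 have symbols that name them as like copies of subunit genes. Their sequences were not compared, and signals of subunit genes may hold RNA of a copy.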

How the data were processed

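RNA of 6 pools of cultured ovaries, 3 with CTGF and 3 controls, was hybridized to 1 array each. The authors summarized the array signals with RMA, adjusted for GC content, in Partek, and they deposited log2 values with 2 decimals for 27342 probe sets. The deposited values had batch differences removed by a step that the sources used here do not describe. For this reason, across probe sets, the deviation of a CTGF array from its group mean correlated with that of its batch partner at -0.9988, -0.9988 and -0.9991. The labels name the batch, which equals the replicate number, and the methods block for it.

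Differences, CTGF minus control, standard errors and 95% intervals were fitted to all probe sets with limma (version 3.58.1, lmFit and eBayes, batch as a block, no filter) under R 4.3.3, and p-values were adjusted by Benjamini and Hochberg's method. The block left 2 residual degrees of freedom, to which 4.22 prior ones were added. The study's criteria were a ratio of un-logged means above 1.2 or below 0.83, a difference above 10 and an unadjusted p under 0.05. The methods write the ratio as control over treatment, and CTGF over control was used here. The ratios of the 80 genes, 0.865 to 1.11, meet neither form. The script was tested on simulated data. Names come from the platform annotation. 15097 probe sets had 1 symbol, 323 several and 11922 none. Coordinates are given only for RefSeq promoters of GRCr8, since the array annotation uses another assembly.

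The genes and lists were chosen with earlier results of these data known. The genes named by rule were the 4 with the smallest p in complexes I, III, IV and V, all of complex II, isoform pairs, 2 assembly factors, genes with probe sets of opposite sign and 2 genes per list. Others, such as Atp5f1a, Atp5mc1, Atp5pf, Cox7b, Idh2 and the regulators beyond Mterf1 and Pprc1, were added with their values in view. Alternatives tried were leaving out the block or each replicate, quantile normalization, centred medians, only probe sets above background, eBayes with trend and robust, the methods' 2-way test, the mean of a gene's probe sets, p under 0.01, Ndufa4 in complex IV, and no tissue isoforms or pseudogenes.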

Additional observations from a re-analysis of the deposited data

How the results depend on the processing

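Under every alternative 0 of the 80 genes passed an adjusted p under 0.05 and 0 met the study's criteria. The number at an unadjusted p under 0.05 was 1, and it became 14 (17.5%, against 16.1% of all probe sets) with no replicate block, 2 (2.5% against 3.45%) with arrays centred on their medians, 3 (3.75% against 3.22%) with trend and robust options, 4 (5% against 4.2%) in the methods' 2-way test, 0 at an unadjusted p under 0.01 and 0 to 2 with a replicate left out. With no replicate block the count over all probe sets was 4415, against 915 in the paired fit. That fit counts degrees of freedom that the removal of batch differences had used up. With probe sets above background alone, 429 passed, as fewer were tested. The 17 genes with 1 direction in all batches became 35 to 39 with a replicate left out, where only 2 batches had to match.

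The median of complex IV turned to 0.01 with centred medians and to 0.013 above background or without pseudogenes. It stayed below control in other settings, at -0.02 with Ndufa4 in complex IV and -0.02 without tissue isoforms. After quantile normalization it was -0.014, and with a replicate left out -0.0375 to -0.0075. That of complex III was -0.07 to 0.035 with a replicate left out, and that of complex V -0.0625 to -0.0325. Complex V had -0.028 with centred medians, which moved the median of all probe sets by 0.013. Genes below control numbered 48, and 50 after quantile normalization, 41 with centred medians, and 55, 52 and 39 without replicate 1, 2 and 3, settings chosen after seeing the data.

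Of 31 named genes, 11 turned in sign under some alternative, with Ndufaf3, at 0.06, the farthest from control among them. Sdhd had 0.0067 with centred medians, Cox8a -0.0011 after quantile normalization, and Ndufv3 -0.048 and Uqcrb -0.0011 as the mean of their probe sets. With a replicate left out the ranges were -0.1 to 0.025 for Sdhb, -0.035 to 0.025 for Sdha, -0.06 to 0.06 for Sdhd, -0.04 to 0.15 for Ndufaf3, -0.07 to 0.135 for Ndufaf4, -0.09 to 0.09 for Cox4i1, -0.04 to 0.04 for Cox4i2, -0.12 to 0.21 for Cox6b2, -0.035 to 0.085 for Cox8a, -0.04 to 0.06 for Ndufv3 and -0.015 to 0.035 for Uqcrb. Cox4i2 is at background, where the sign of a difference has no meaning. The cause was not tested for the others. The 3 arrays per group limit what could be seen, as do probe sets near background such as those of Ndufa2 and Atp5mg.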
